A study of Homo sapiens with 4 samples.

Results

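The germline, meiosis and pluripotency genes described here form a list of 41 genes that were grouped by name and known role. The grouping rule used no value from these arrays, but the list was chosen with earlier results of these data known. Of these, 40 had at least 1 probe on the array, out of 19483 genes with a named probe in all. No probe was matched to TEX15, which was not analysed here. The 40 genes were read by 49 probes, and 9 of them had 2 probes, in which case the brightest probe stood for the gene.

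The arrays compared TR9_MeTA14 with TR15_MeTA5, both derivatives of the human prostate cancer cell line LNCaP. LNCaP cells were first given a Tet repressor (TR9 and TR15) and then a construct from which tetracycline induces NFκB (AD)-MBD, a fusion of the NFκB activation domain to a methyl-CpG binding domain, so that both uninduced and induced cells carry the repressor and the construct. Each line was grown without tetracycline (-Tet) or with it for 4 days (+Tet), and each of these 4 conditions was hybridised to 1 array, so that the lines are the only replicates of the tetracycline effect. The parental TR9 and TR15 lines were not on the arrays analysed here, and an effect of tetracycline itself cannot be told apart from an effect of the induced protein.

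Germ cells and early embryonic cells use a set of genes that most adult tissues keep silent. In many somatic cell types methylation of CpG dinucleotides at the promoter contributes to this silencing, and some of these genes, known as cancer-testis or cancer-germline genes, are transcribed again in tumours. Methyl-CpG targeted transcriptional activation, or MeTA, brings an activation domain to methylated CpGs, and the question for this gene set was which of its members gained signal when NFκB (AD)-MBD was induced.

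The promoters of 6 members are shown first, because the members differ most visibly in how many CpG dinucleotides lie upstream of their start. CABYR, DPPA3, TDRD9 and ADAD2 had the largest values when members were ordered by the smaller of their folds or lower bounds in the lines; since NANOG, PIWIL4 and TEX11 have bounds only, their true place relative to ADAD2 is not known. DPPA4 and SPAG6 were not above background on any array and had the fewest and the most CpGs among such members. Each sequence is the 250 bases before the transcription start from RefSeq (GRCh38.p14), written 5′ to 3′ on the gene's strand, with every CpG in capitals. The CABYR stretch lies on the plus strand at chr18:24138812-24139061 and holds 18 CpGs. The DPPA3 stretch, plus strand at chr12:7711183-7711432, holds 2. The TDRD9 stretch, plus strand at chr14:103928206-103928455, holds 35. The ADAD2 stretch, plus strand at chr16:84190907-84191156, holds 13. The DPPA4 stretch, minus strand at chr3:109337547-109337796, holds 3. The SPAG6 stretch, plus strand at chr10:22345246-22345495, holds 39.
CABYR: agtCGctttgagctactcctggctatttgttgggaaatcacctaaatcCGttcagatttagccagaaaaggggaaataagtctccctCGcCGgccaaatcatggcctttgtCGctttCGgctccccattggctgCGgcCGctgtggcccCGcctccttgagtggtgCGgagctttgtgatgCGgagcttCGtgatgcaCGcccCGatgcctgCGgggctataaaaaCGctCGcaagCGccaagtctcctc
DPPA3: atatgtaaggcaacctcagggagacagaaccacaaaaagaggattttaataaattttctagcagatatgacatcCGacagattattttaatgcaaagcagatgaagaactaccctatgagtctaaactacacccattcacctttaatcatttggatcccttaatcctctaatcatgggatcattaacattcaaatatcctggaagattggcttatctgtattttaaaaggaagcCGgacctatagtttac
TDRD9: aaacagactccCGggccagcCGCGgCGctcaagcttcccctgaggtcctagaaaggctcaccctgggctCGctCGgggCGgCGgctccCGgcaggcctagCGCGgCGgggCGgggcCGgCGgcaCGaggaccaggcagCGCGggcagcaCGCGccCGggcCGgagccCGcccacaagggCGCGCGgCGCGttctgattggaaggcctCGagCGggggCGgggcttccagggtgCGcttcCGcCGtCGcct
ADAD2: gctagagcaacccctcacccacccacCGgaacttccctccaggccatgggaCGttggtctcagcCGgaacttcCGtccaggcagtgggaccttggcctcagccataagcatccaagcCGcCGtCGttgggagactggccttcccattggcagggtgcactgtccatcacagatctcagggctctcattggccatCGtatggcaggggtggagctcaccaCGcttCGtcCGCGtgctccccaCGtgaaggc
DPPA4: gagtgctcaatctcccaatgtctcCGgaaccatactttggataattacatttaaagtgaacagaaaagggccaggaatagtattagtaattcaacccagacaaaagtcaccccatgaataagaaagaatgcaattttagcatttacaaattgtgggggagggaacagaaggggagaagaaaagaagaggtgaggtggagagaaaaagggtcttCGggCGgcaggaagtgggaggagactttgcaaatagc
SPAG6: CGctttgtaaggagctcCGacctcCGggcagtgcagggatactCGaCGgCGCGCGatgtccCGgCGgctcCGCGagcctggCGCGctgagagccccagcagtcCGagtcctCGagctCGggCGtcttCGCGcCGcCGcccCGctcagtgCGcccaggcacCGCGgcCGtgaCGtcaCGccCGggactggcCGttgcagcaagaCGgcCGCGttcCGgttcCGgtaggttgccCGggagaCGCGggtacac

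Signals below are processed intensities, which are background-subtracted by the scanner software and have no absolute unit. A probe was taken as expressed where the software flagged it as well above background. In TR9_MeTA14 the lowest signal with that flag was 15.5 without tetracycline and 13.9 with it, and in TR15_MeTA5 it was 15.4 and 19.2. Signals under these have no order. Fold changes were taken after each array was scaled on its 75th percentile (617.0, 776.6, 366.5 and 542.0 in the same order), so that a rise is smaller than the ratio of the printed signals. Where the dimmer array was not above background, the fold is given as a lower bound against the lowest flagged signal of that array, or against the probe's own signal where that was higher. Probes without the flag can read above the lowest flagged signal, as TEX101 did at 25.2 in TR15_MeTA5 +Tet. These bounds are therefore approximate, and those close to 2-fold could fall on either side of it. Probes spotted repeatedly gave a technical SD of 0.0866 for a log2 ratio, which covers the spread within an array and not the spread between cultures.

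Most of the 40 genes were silent in uninduced cells, and some of them came on with tetracycline. Without tetracycline 10 members were above background in TR9_MeTA14 and 11 in TR15_MeTA5, that is 25.0% and 27.5%, against 71.1% and 68.3% of all genes on these arrays. With tetracycline the numbers were 17 and 18, or 42.5% and 45.0%, while the shares of all genes were 77.3% and 71.9%. The plot of member signals by array shows this as filled symbols that sit above the grey band only after induction. On all 4 arrays 18 members stayed at background and 7 were above it.

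**Figure D1:**
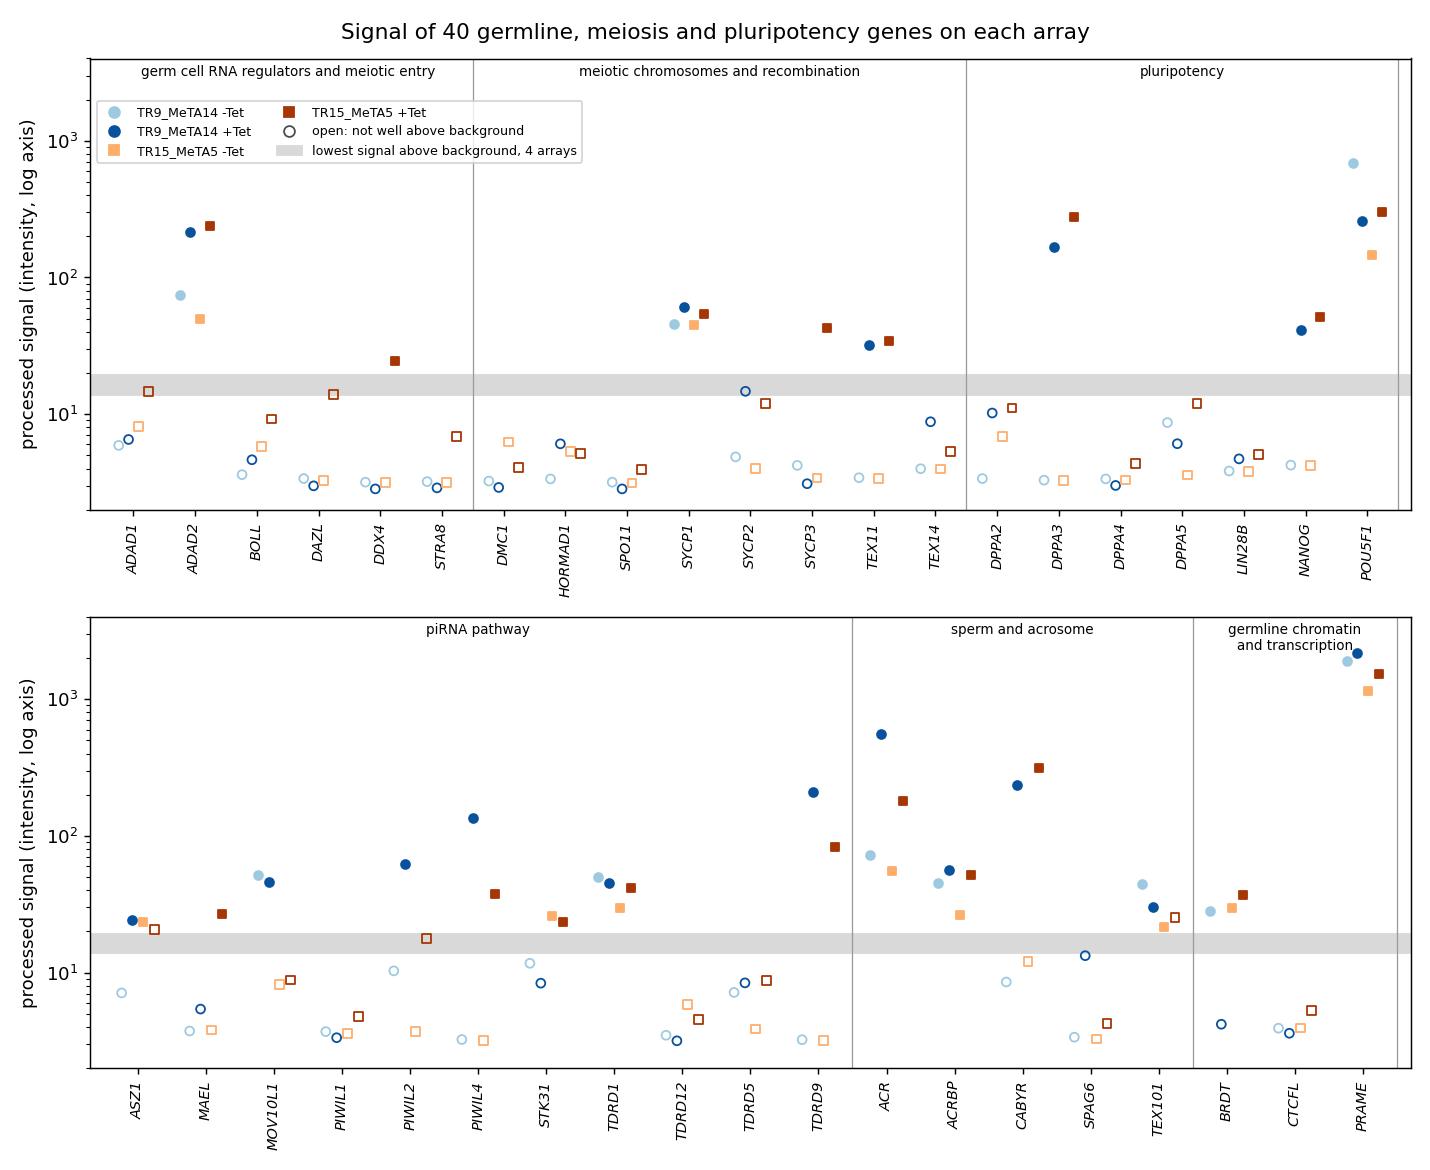
Processed signal (intensity, log axis) of the 40 germline, meiosis and pluripotency genes on each array, grouped by role, with 1 point per array. Filled symbols are well above background and open symbols are not, and the grey band spans the lowest flagged signals of the 4 arrays, 13.9 to 19.2. DPPA3, NANOG, TEX11, TDRD9, PIWIL4 and CABYR are filled only with tetracycline in both lines.

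A switch from silent to expressed in both lines could be seen only in the 28 members that were not above background in either uninduced line. Of these, 6 were above background with tetracycline in both lines (CABYR, DPPA3, NANOG, PIWIL4, TDRD9 and TEX11), where the share over all 5305 such genes was 10.9%. Another 4 were above background in only 1 induced line (DDX4, MAEL and SYCP3 in TR15_MeTA5, PIWIL2 in TR9_MeTA14), with 17.2% over all such genes. The 10 members that came on in at least 1 line stand beside 28.1% of all genes that were silent in both uninduced lines.

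Of the members with a fold in TR9_MeTA14, 8 of 18 were at least 2-fold higher with tetracycline, where 16.8% of all genes with a fold were. In TR15_MeTA5, 6 of 20 were, where 9.78% of all genes were. In both lines 6 of 16 were at least 2-fold higher (ACR, ADAD2, CABYR, DPPA3, NANOG and TDRD9), beside 8.21% of all genes, and no member was at least 2-fold lower in both lines, beside 0.837%. In each line, a member at background without tetracycline has a fold only if its induced array had signal, and so enters only as a rise. These counts therefore describe the genes with a fold and not all 40. Bounds made up 9 of 18 and 11 of 20 member folds, but 1532 of 15076 and 1418 of 14342 over all genes. The shares of members and of all genes are thus not a like comparison. The median log2 fold change over the members with a fold was 0.52 in TR9_MeTA14 and 0.44 in TR15_MeTA5. It was -0.06 and -0.16 over all genes, with the same limit. Over members above background on both arrays of a line, the medians were -0.14 and -0.07.

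**Figure D2:**
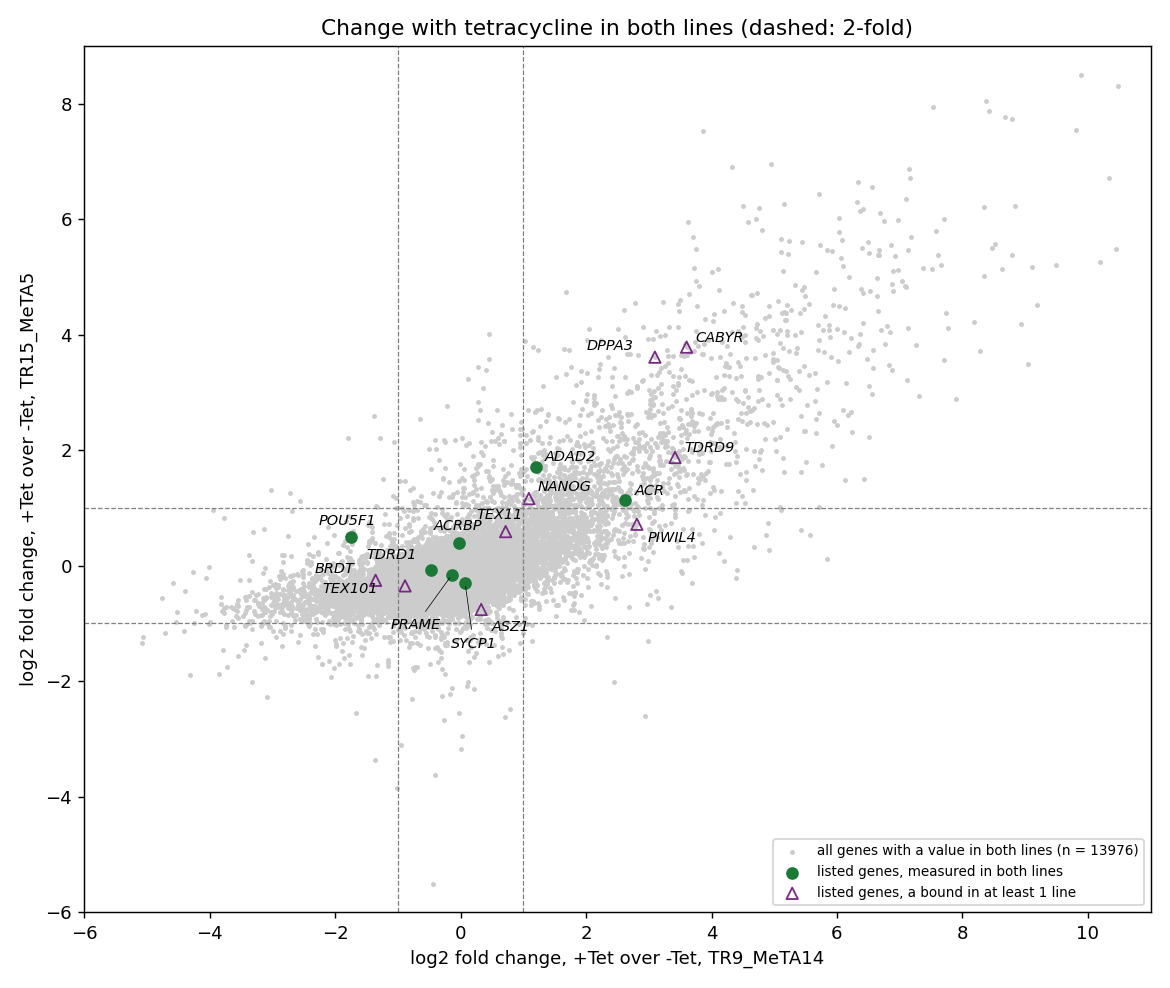
Log2 fold change with tetracycline in TR9_MeTA14 (x axis) against TR15_MeTA5 (y axis) for 13976 genes with a fold in both lines (grey) and the 16 members among them. Circles are members measured above background in both conditions of both lines, triangles are members with a bound in at least 1 line, and dashed lines mark 2-fold. CABYR, DPPA3, TDRD9, ADAD2, ACR and NANOG lie beyond 2-fold in both lines.

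Among the pluripotency genes, DPPA3 and NANOG switched on in both lines and the others did not. DPPA3 (STELLA) is a maternal factor of the early embryo and of primordial germ cells that guards DNA methylation patterns. Its probe read 3.29 without and 167 with tetracycline in TR9_MeTA14, and 3.25 without and 279 with it in TR15_MeTA5. Pairs of values below keep this order, without tetracycline first. Both induced arrays were far above both uninduced ones, which were at background. TR9_MeTA14 showed a rise of at least 8.56-fold and TR15_MeTA5 one of at least 12.2-fold. In limma over both lines the log2 change was 5.59 ± 0.38 (SE, 2 lines), with a Benjamini-Hochberg adjusted p of 0.0155 over all probes tested. The limma estimate uses the uninduced signals as deposited, below background, and is therefore larger than the bounds. Its SE and adjusted p rest on the same background values, and DPPA3 entered the fit only through its induced arrays. The same holds below for every gene at background in both uninduced lines.

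NANOG, a homeobox factor of the pluripotency network, read 4.24 and 41.4 in TR9_MeTA14 without and with tetracycline, and 4.24 and 51.0 in TR15_MeTA5. The bounds were 2.13-fold and 2.24-fold, close to the 2-fold cut-off, and the limma log2 change of 2.99 ± 0.41 had an adjusted p of 0.0534. DPPA3 and NANOG both have near-identical pseudogene copies in the human genome, and whether their probes also read these was not tested.

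DPPA3 and NANOG are neighbours on chromosome 12, so the protein-coding genes around them in RefSeq order were read as well, a choice made after the member values were seen. CLEC4C and NANOGNB, which lie between DPPA3 and NANOG, and GDF3, APOBEC1 and CD163 on the other side of DPPA3 were not above background on any array. Beyond NANOG, SLC2A3 (a glucose transporter) read 3.42 and 40 in TR9_MeTA14 and 5.22 and 99.7 in TR15_MeTA5, at least 1.04 and 2.13 higher on the log2 scale. FOXJ2, the next gene on that side, was above background throughout and differed by -0.11 and -0.43 (log2). SLC2A14, between NANOG and SLC2A3, had no probe, and whether the SLC2A3 probe also reads it was not tested. In this stretch DPPA3, NANOG and SLC2A3 therefore came on with tetracycline. The other genes with a probe were either at background throughout or expressed throughout.

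POU5F1 (OCT4), the POU factor that partners NANOG in pluripotent cells, was above background on every array and behaved differently in the lines. Its brightest probe read 691 and 259 in TR9_MeTA14 and 145 and 301 in TR15_MeTA5, that is 3.36-fold lower with tetracycline in TR9_MeTA14 and 1.41-fold higher in TR15_MeTA5. A second POU5F1 probe read 71.4 and 36.1, then 41.7 and 43.2, and was 2.49-fold and 1.43-fold lower. The probes thus gave the same direction in TR9_MeTA14 and opposite directions in TR15_MeTA5. POU5F1 too has near-identical retrocopies, and the limma adjusted p of the brightest probe was 0.581. DPPA2 and DPPA4, which act together in pluripotent cells, DPPA5 and LIN28B, an inhibitor of let-7 processing, were at background on all 4 arrays.

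In the piRNA pathway, which silences transposons in germ cells through PIWI proteins and their small RNAs, 2 of 11 members came on in both lines. TDRD9, a Tudor-domain helicase of the pathway, read 3.23 and 208 in TR9_MeTA14 and 3.19 and 83.6 in TR15_MeTA5. It rose at least 10.7-fold and at least 3.66-fold, with a limma log2 change of 4.91 ± 0.53 (SE, 2 lines) and an adjusted p of 0.0324. PIWIL4, a PIWI protein that acts in the nucleus, read 3.24 and 136, then 3.20 and 37.5. The bounds for PIWIL4 were 7.01-fold in TR9_MeTA14 and 1.64-fold in TR15_MeTA5, and the limma adjusted p was 0.0697. Both genes gave the higher induced signal in TR9_MeTA14, and whether the lines differed was not tested.

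PIWIL2, another PIWI protein, was above background in TR9_MeTA14 +Tet alone, at 62.2 after 10.3 without tetracycline, a rise of at least 3.19-fold. It read 3.70 and 17.8 in TR15_MeTA5, neither above background. MAEL (maelstrom) was above background in TR15_MeTA5 +Tet alone, at 26.8, which bounds its rise at only 1.18-fold. For PIWIL2 and MAEL the pattern was therefore seen once each.

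Another 4 piRNA genes were already above background in at least 1 uninduced line, and no 2-fold rise was measured for them. TDRD1, a Tudor-domain scaffold, read 50 and 45.5 in TR9_MeTA14 and 29.6 and 41.7 in TR15_MeTA5, which after scaling differed by -0.47 and -0.07 (log2). MOV10L1, the helicase that starts piRNA processing, was expressed in TR9_MeTA14 only, at 51.7 and 46.0, against 8.13 and 8.84 at background in TR15_MeTA5. A second MOV10L1 probe was above background in TR9_MeTA14 +Tet alone, at 15.2. STK31, a germ cell Tudor-domain kinase, was above background in TR15_MeTA5 only, at 25.9 and 23.5, against 11.7 and 8.37 at background in TR9_MeTA14, and its second probe was at background on all 4 arrays. ASZ1, a mitochondrial anchor of the pathway, read 7.10 (background) and 24.4 in TR9_MeTA14 and 23.6 and 20.6 (background) in TR15_MeTA5. The rise of ASZ1 in TR9_MeTA14 was at least 1.25-fold, a bound that does not exclude a larger one. PIWIL1, TDRD5 and TDRD12 were at background on all 4 arrays.

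Among the sperm and acrosome genes CABYR rose most. CABYR is a calcium-binding protein of the sperm tail. Its brightest probe read 8.54 and 237 in TR9_MeTA14 and 12 and 314 in TR15_MeTA5, at least 12.2-fold and at least 13.8-fold higher with tetracycline. Both uninduced arrays were at background and both induced arrays were not. The limma log2 change was 4.30 ± 0.32 (SE, 2 lines), adjusted p 0.0176. A second CABYR probe, which the array annotation gives the same RefSeq transcript, read 4.12, 4.20, 3.48 and 13.6 and was above background on no array, so the rise was seen with 1 of 2 probes.

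ACR encodes acrosin, the protease of the acrosome. Its brightest probe read 72.1 and 560 in TR9_MeTA14 and 55.4 and 179 in TR15_MeTA5, above background throughout, and was 6.17-fold and 2.19-fold higher. The second ACR probe, also above background on every array, read 42.6 and 60.0, then 46.5 and 70.4, and its folds were 1.12 and 1.02. The ACR probes therefore disagreed, and the limma adjusted p of the brighter one was 0.160 and of the other 0.879. ACRBP, which binds proacrosin, read 45.2 and 56.1 in TR9_MeTA14 and 26.6 and 51.7 in TR15_MeTA5, or -0.02 and 0.39 after scaling (log2). TEX101, a surface glycoprotein of germ cells, was 1.85-fold lower in TR9_MeTA14 (44.3 and 30.2) and at least 1.28-fold lower in TR15_MeTA5 (21.7 and 25.2, the latter not above background). SPAG6, of the axoneme of the sperm tail, was at background on all 4 arrays.

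Of the germ cell RNA regulators and genes of meiotic entry, ADAD2 was the one expressed in uninduced cells. ADAD2 is a testis protein with an adenosine deaminase domain and a double-stranded RNA binding domain. It read 74.2 and 215 in TR9_MeTA14 and 49.4 and 240 in TR15_MeTA5, and was 2.31-fold and 3.29-fold higher with tetracycline. All 4 signals were above background and the induced arrays of both lines lay above both uninduced ones. The limma log2 change was 1.46 ± 0.30 (SE, 2 lines) with an adjusted p of 0.121, which did not pass 0.05. DDX4 (VASA), the germ cell helicase, read 24.5 in TR15_MeTA5 +Tet and was at background on the other arrays, a rise of at least 1.07-fold, so that its signal was barely past the lowest flagged one. DAZL, BOLL, STRA8 and ADAD1, among them the RNA-binding proteins of the DAZ family and the retinoic acid-responsive gatekeeper of meiosis, were at background on all 4 arrays.

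Of the 8 members that act on meiotic chromosomes, 5 were at background on all 4 arrays. TEX11, an X-linked meiotic crossover factor, was the member of this group that came on in both lines, with 3.43 and 32.0 in TR9_MeTA14, then 3.37 and 34.3 in TR15_MeTA5. The bounds were 1.64-fold and 1.5-fold, and the limma log2 change of 2.84 ± 0.44 had an adjusted p of 0.0659. SYCP3, of the lateral element of the synaptonemal complex, read 43.0 in TR15_MeTA5 +Tet, at least 1.88-fold higher, and was at background on the other arrays. SYCP1, of the transverse filaments, was above background throughout, with 45.7 and 60.4 in TR9_MeTA14 and 44.7 and 53.8 in TR15_MeTA5, or 0.07 and -0.30 (log2) after scaling. SYCP2, HORMAD1, SPO11 (the enzyme of meiotic double-strand breaks), DMC1 (the meiotic recombinase) and TEX14 were the 5 at background.

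Of the germline chromatin and transcription genes, none rose 2-fold. PRAME, a cancer-testis antigen, was expressed in every condition, with 1913 and 2185 in TR9_MeTA14 and 1154 and 1528 in TR15_MeTA5, or -0.14 and -0.16 (log2) after scaling. BRDT, the testis bromodomain protein, read 28.3 and 4.19 in TR9_MeTA14 and 29.8 and 37.0 in TR15_MeTA5. It was at least 2.56-fold lower in TR9_MeTA14, where the induced array was at background, and 1.19-fold lower in TR15_MeTA5. CTCFL (BORIS), the germline paralogue of CTCF, was at background on all 4 arrays. BRDT and POU5F1 were the 2 of 18 members at least 2-fold lower in TR9_MeTA14, beside 15.1% of all genes, and none of 20 was in TR15_MeTA5, beside 2.21%.

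Over both lines 18 members entered the limma fit, with the line as a block and 1 residual degree of freedom. CABYR, DPPA3 and TDRD9 were higher at an adjusted p below 0.05, which is 3 of 18 beside 3.22% of the 14460 genes tested. No member was lower, beside 0.0138% of genes. At an unadjusted p below 0.05 there were 8 of 18, these 3 with NANOG, TEX11, PIWIL4, ADAD2 and ACR, beside 21.5% of genes. A member that was silent without tetracycline could enter the fit only through its induced arrays, as CABYR, DPPA3 and TDRD9 did. No member was called among the 7 tested that were above background on all 4 arrays.

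The uninduced lines also differed from each other in a few of these genes. STK31 was at least 2.82-fold and ASZ1 at least 2.57-fold higher in TR15_MeTA5, which is 2 of 12 members with a fold, beside 8.17% of all genes. The second STK31 probe was at background on both arrays, and the mean over the STK31 probes differed by 0.04 (log2). POU5F1 was 2.83-fold lower in TR15_MeTA5, 1 of 12, beside 5.19%, although its second probe differed by 1.02-fold. MOV10L1 was at least 1.99-fold lower there. With spike-in scaling the 2 higher and 1 lower became 0 and 6. The median log2 difference over the 12 members was 0.09, and 0.12 over all genes.

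The members that came on with tetracycline and had a promoter entry differed widely in CpG content. RefSeq promoter windows, from 250 bases before to 50 after the start, were found for 34 members. With CpG-rich taken as an observed over expected CpG ratio of at least 0.6 and a GC content of at least 50%, 26 of 34 members were CpG-rich (76.5%), and 69.7% of 15176 genes were. With a stricter ratio of 0.75 and GC content of 55%, 19 of 34 members were (55.9%), and 55.1% of genes were. The median number of CpGs was 24 in the members and 25 in all genes. The plot of CpGs per promoter shows 5 in NANOG and 6 in DPPA3, 13 in TEX11, 24 in CABYR and 41 in TDRD9, which came on in both lines. DDX4 with 1 and MAEL with 60 came on in TR15_MeTA5 alone, close to background, and PIWIL2 and PIWIL4 had no promoter entry. Members that stayed at background likewise ran from 5 in DPPA4 to 47 in SPAG6.

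**Figure D3:**
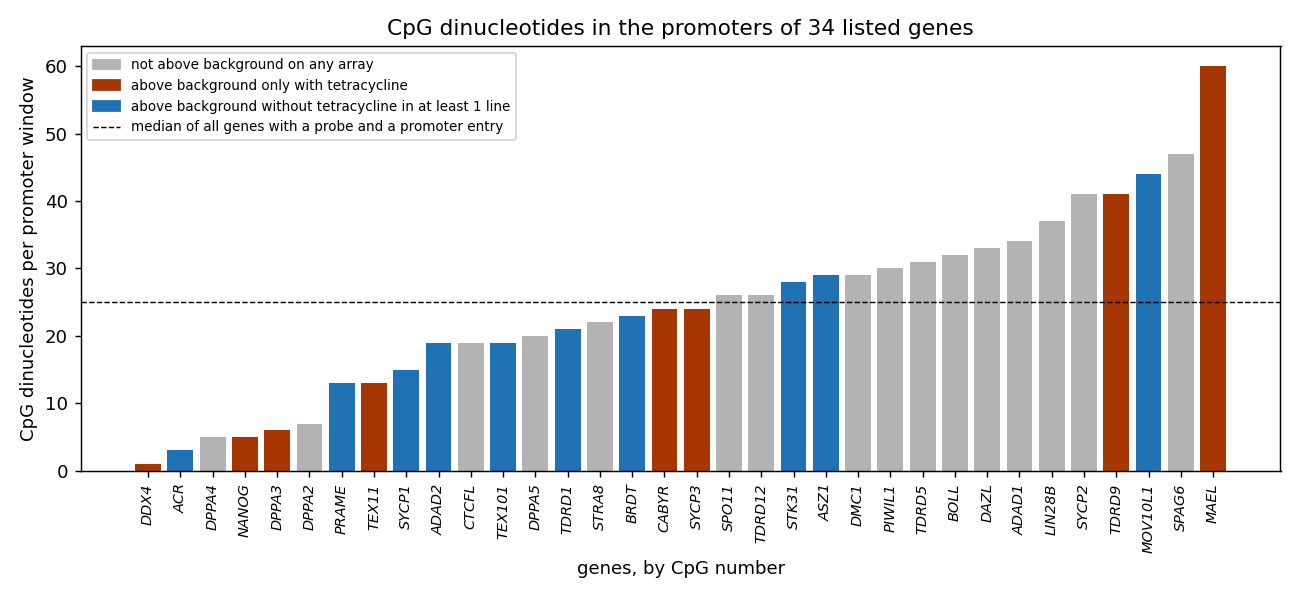
Number of CpG dinucleotides in the promoter window of 34 members, in rising order, coloured by when the gene was above background, with the median of all genes as a dashed line at 25. Members that came on only with tetracycline are found at both ends, DDX4 at 1 and MAEL at 60, as are members that stayed at background.

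Among CpG-rich members that were silent in both uninduced lines, 3 of 18 came on in both lines, or 16.7%, and 16.1% of all CpG-rich silent genes did. Among CpG-poor ones it was 2 of 6, or 33.3%, beside 6.88% of all CpG-poor silent genes. DPPA3 and NANOG were these 2, so the number is too small to read a share from. With the stricter rule it was 2 of 14 CpG-rich members, beside 15.8% of such genes, and 3 of 10 CpG-poor members, beside 8.55%. The palindromic E-box CACGTG was found in the windows of 6 of 34 members (ADAD2, BRDT, STK31, TDRD1, TDRD5 and TDRD12), or 17.6%, and in 8.97% of all windows. The E2F motif GGCGGGA, searched on both strands, was found in 6 of 34 (MOV10L1, PIWIL1, SYCP1, SYCP2, SYCP3 and TDRD9), or 17.6%, and in 22.3% of all windows. The DNA methylation of these promoters was not measured on the arrays.

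Other genes of the same pathways were read from lists of known genes. At least 2-fold higher in both lines were 3 of 13 germ cell factors, 1 of 13 meiotic chromosome genes, 1 of 7 piRNA genes, 3 of 10 pluripotency genes and 0 of 16 spermatid and sperm genes with a fold in both, beside 8.21% of all genes. In TR9_MeTA14 the numbers were 3 of 14, 4 of 17, 2 of 10, 4 of 10 and 4 of 20 in this order, beside 16.8%. In TR15_MeTA5 they were 3 of 14, 1 of 14, 1 of 9, 4 of 12 and 0 of 16, beside 9.78%. As for the members, a gene silent without tetracycline enters only as a rise. No gene of these lists was 2-fold lower in both lines. In TR15_MeTA5, 2 of 14 germ cell factors and 2 of 16 spermatid and sperm genes were at least 2-fold lower, beside 2.21% of all genes. There 0 of 14 meiotic chromosome genes, 0 of 9 piRNA genes and 0 of 12 pluripotency genes were. In TR9_MeTA14, 4 of 14 germ cell factors, 5 of 17 meiotic chromosome genes and 2 of 10 piRNA genes were at least 2-fold lower. So were 1 of 10 pluripotency genes and 0 of 20 spermatid and sperm genes, beside 15.1% of all genes. Among these, chosen after their values were seen, MND1 (a partner of meiotic recombination) was 13.6-fold and SOHLH2 (a relative of SOHLH1) 7.88-fold lower in TR9_MeTA14, and 1.76-fold and 1.53-fold lower in TR15_MeTA5. NANOS1, a translational repressor of germ cells, read 32.0 and 1485 in TR9_MeTA14 and 11.2 (background) and 524 in TR15_MeTA5, 36.9-fold and at least 23.0-fold higher, with a limma adjusted p of 0.0139. SOHLH1, a helix-loop-helix factor of spermatogonia and oocytes, read 12.3 (background) and 287, then 32.7 and 691, at least 14.7-fold and 14.3-fold higher (limma adjusted p 0.0176). NANOS3, which keeps primordial germ cells alive, read 37.0 and 213, then 16.8 and 241, 4.57-fold and 9.68-fold higher (limma adjusted p 0.0576). These 3 of 13 germ cell factors were named because they passed 2-fold in both lines, so their higher induced signals follow largely from that choice.

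REC8, the meiotic cohesin subunit, read 158 and 865 in TR9_MeTA14 and 43.2 and 455 in TR15_MeTA5, 4.35-fold and 7.12-fold higher (limma adjusted p 0.0442). PLD6, the mitochondrial nuclease of piRNA biogenesis, read 5.07 and 310, then 13.5 and 90.5, at least 15.9-fold and at least 3.97-fold higher (limma adjusted p 0.147). Each was the single case in its list. KLF4, a reprogramming factor that epithelia also use, read 127 and 1225, then 76.8 and 547, 7.68-fold and 4.82-fold higher (limma adjusted p 0.0376). The NODAL inhibitors LEFTY1 and LEFTY2 rose 13.5-fold and at least 28.4-fold in TR9_MeTA14, and in TR15_MeTA5 the bounds were 5.51-fold and 5.52-fold, with limma adjusted p-values of 0.0224 and 0.0368. They are close paralogues, and whether each probe reads its own gene alone was not tested. SOX2, the partner of POU5F1, and LIN28A, both named after their values were seen, were at background on all 4 arrays.

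**Figure D4:**
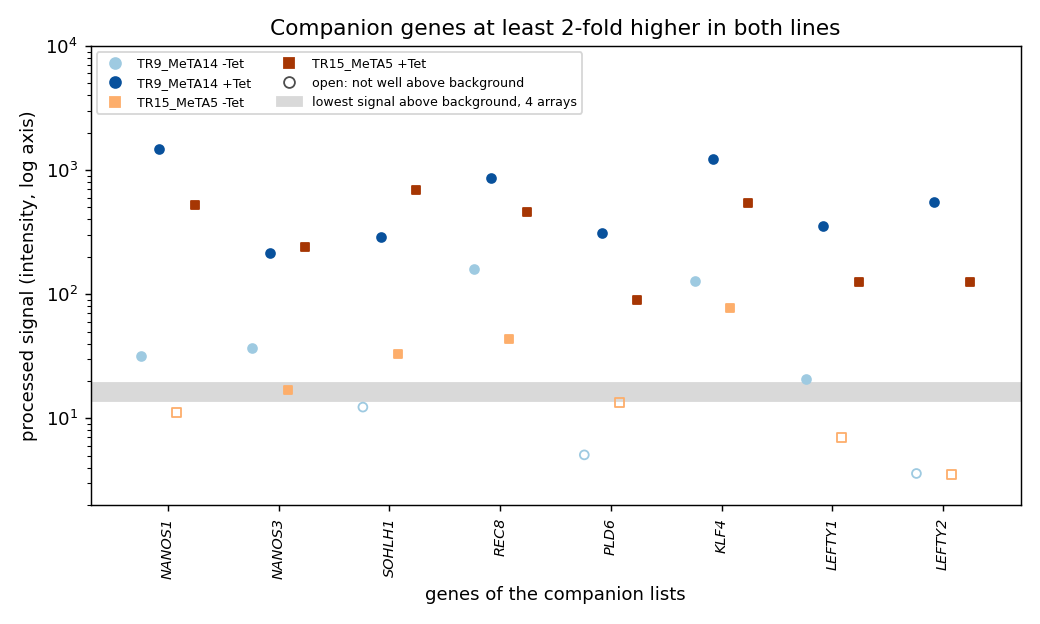
Processed signal (intensity, log axis) on each array for the 8 genes of the companion lists past 2-fold in both lines, with 1 point per array. Filled symbols are well above background, open symbols are not, and the grey band spans the lowest flagged signals, 13.9 to 19.2. For every gene both induced arrays lie above both uninduced ones, which follows largely from choosing genes past 2-fold in both lines.

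All 8 luminal prostate markers read were above background on every array, and none of the 3 basal markers (KRT5, KRT14 and TP63) was on any. In TR9_MeTA14, 5 of the 8 luminal markers (HOXB13, KLK2, KLK3, STEAP2 and TMPRSS2) were at least 2-fold lower with tetracycline, beside 15.1% of all genes, KLK2 being 16-fold and TMPRSS2 8.17-fold lower and KRT8 1.18-fold higher. In TR15_MeTA5 none of the 8 was 2-fold lower, KLK2 being 1.98-fold lower. The median log2 change over the 8 was -1.64 in TR9_MeTA14 and -0.65 in TR15_MeTA5. The summed signal, not scaled between arrays and so not comparable with these medians, went from 289734 to 134627 and from 229838 to 214415. KLK3 alone gave 144067 and 47017 of these, then 135330 and 123470. Of 6 markers of somatic testis cells, AMH, CYP17A1 and INSL3 were above background on all arrays, with median log2 changes of 0.33 and 0.04 over the 3, and FSHR, DHH and HSD3B2 were not on any. The part of these shifts in the germline gene values was not tested. Across the arrays 20566 to 24222 of 34127 probes were above background and none was saturated.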

How the data were processed

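RNA from TR9_MeTA14 and TR15_MeTA5 cells, without tetracycline or after 4 days with it, was labelled with Cy3 and hybridised to 4 Agilent 4 × 44K arrays, 1 per condition. The authors extracted the images with Agilent Feature Extraction (10.7.3.1 per the file headers, 9.5.1 in the submitters' processing notes) and deposited the intensity of each spot, background-subtracted within the array. A normalization between arrays is not given in the sources used here. A deposited table of the series held the same processed signals.

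From these values, spots with outlier flags were left out, log2 signals were averaged per probe, and the 75th percentile over 34127 non-control probes was subtracted. Probes were named through their RefSeq accession (25422 probes, 74.5%, paired with 1 gene). A 2-fold cut-off was applied in each line. limma 3.58.1 (R 4.3.3), with line as a block and an intensity trend, was fitted to 22810 probes above background on at least 2 arrays, with Benjamini-Hochberg adjustment over all of them. The fit was also run on simulated data with the same spread for all probes. That setting does not represent signals at background, so it says nothing about the calls of silent members. Promoters came from RefSeq (GRCh38.p14), the start with most CpGs standing for a gene, and 7 members had no entry. Arrays have no count depth, and their number limits the precision.

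The members and all gene lists were chosen with earlier results of these data known. Some genes of the luminal marker list are not reported here and were left out of its values. Every member is accounted for. Values on each array are given for members at least 2-fold changed in both lines, with a limma call, or expressed in both uninduced lines. For other members that were above background on any array, at least the signals above background are given. Of the companion lists, genes at least 2-fold higher in both lines were named, up to 5 per list. Alternatives were other scalings (quantile, median, spike-in), normexp (offset 50) on the spot medians, all spots kept, plain ratios, a stricter filter, the mean over probes, cut-offs of 3-fold and 1.5-fold, and limma without the block, trend or filter. A stricter rule for CpG-rich promoters was also read.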

Additional observations from a re-analysis of the deposited data

Results flagged for a closer look

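The values of POU5F1 and ASZ1 had opposite signs in the lines, and the spread between cultures is not known. They were flagged because the changes in both lines were also well beyond the technical SD of a log2 ratio. ACRBP (-0.02 and 0.39) and SYCP1 (0.07 and -0.30) had opposite signs too, but were not flagged, as their change in TR9_MeTA14 was small. For POU5F1 the log2 change with tetracycline was -1.75 in TR9_MeTA14 and 0.49 in TR15_MeTA5, a difference of 2.24. Its second probe was lower in both lines, by -1.32 and -0.51 on the log2 scale. For ASZ1 the changes were 0.33 and -0.76, both bounds from signals near background, a difference of -1.09. The technical SD does not apply to values at background, and neither difference was tested, because 4 arrays leave no replicate of either line's change.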

How the results depend on the processing

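The +Tet and -Tet arrays of each line were paired in limma through its block on cell line, and the fit without that block also called 3 members. All groups carry the same single replicate number, which pairs no further samples. A fold against an array at background is a bound, which limits what the signals can show, and leaving out a replicate would leave no comparison.

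The 6 members higher in both lines became 3 with normexp and 3 at 3-fold (CABYR, DPPA3 and TDRD9 each time), 2 with the filter on both arrays (ACR and ADAD2), 5 with quantile scaling (without NANOG), 4 with the mean over probes (without ACR and CABYR), 7 with spike-in scaling (with PIWIL4), and 8 with plain ratios or at 1.5-fold (with PIWIL4 and TEX11). In TR9_MeTA14 the 8 higher became 5 with normexp and 2 with the filter on both arrays, and the 2 lower became 1 with normexp, with that filter and at 3-fold. In TR15_MeTA5 the 6 higher became 11 with plain ratios and 2 with that filter, and the 0 lower became 2 at 1.5-fold. The median log2 change of 0.52 in TR9_MeTA14 became 0.23 with quantile scaling, 0.64 with spike-in scaling, 0.10 with normexp, 1.33 with plain ratios, -0.14 with the filter on both arrays and 0.70 with the mean over probes. That of 0.44 in TR15_MeTA5 became 0.85 with spike-in scaling, 0.25 with normexp, 1.42 with plain ratios, -0.07 with that filter and 0.31 with the mean over probes. Between the uninduced lines the 2 higher in TR15_MeTA5 became 0 with spike-in scaling, normexp, the filter on both arrays or 3-fold, 1 with the mean over probes and 4 at 1.5-fold. The 1 lower became 2 with quantile scaling, plain ratios or 1.5-fold, 6 with spike-in scaling, and 0 with the mean over probes or at 3-fold. The 3 members called by limma became 5 without the trend, 6 without the filter and 0 among probes above background on all 4 arrays, where 2 of the 7 members tested had an unadjusted p below 0.05; the silent members cannot enter that fit. The cause of the other changes was not tested.

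Spike-in scaling moved the median log2 change of probes above background on all arrays from -0.18 to 0.18 in TR15_MeTA5 and from -0.15 to -0.04 in TR9_MeTA14. With normexp CABYR changed by 1.41 and 2.06 (log2), DPPA3 by 1.30 and 2.30, and TDRD9 by 1.53 and 1.07. With the mean over its probes CABYR changed by 0.70 and 1.52.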
